A study of Rattus norvegicus with 14 samples.

Results

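Skeletal muscle transcripts were followed through RNA libraries of rat dorsal root ganglia, as 38 genes chosen by name because their products build, trigger or fuel the contraction of skeletal muscle fibres. A member was the row with that symbol in the deposited tables, and 37 of the 38 members had 1 row each among 30562 genes. Myot was not analysed here. The members fell into 12 isoforms typical of fast fibres, 7 typical of slow fibres, 7 sarcomere proteins of both, 5 proteins of excitation-contraction coupling and 6 proteins of energy metabolism.

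The libraries came from ganglia L2 to L5 of 7 male WT rats, in which the extensor digitorum longus, a fast muscle of the lower leg, had been grafted to the saphenous nerve in 1 hindlimb. Each rat gave a surgical library from the grafted side and a control library from the unoperated side, with rats A, B and E labelled 6 weeks and the other rats, C, D, G and H, labelled 8 weeks. The groups were therefore surgical at 6 weeks (n = 3), control at 6 weeks (n = 3), surgical at 8 weeks (n = 4) and control at 8 weeks (n = 4), and the control was the other side of an operated animal. Each library held a different side of a rat, so spread between rats of a group is spread between animals. Total estimated counts ran between 18489118 and 28237574 per library.

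Skeletal muscle fibres are built of sarcomeres, in which myosin thick filaments pull on actin thin filaments. Calcium released through the ryanodine receptor binds troponin C, and troponins I and T then free the thin filament for myosin. Fast and slow fibres use different genes for most of these proteins, so the isoforms present tell fibre types apart. Dorsal root ganglia hold sensory neurons and their glia, and skeletal muscle fibres are not among the cells they are known for. Markers of sensory neurons were present on both sides, with a sum over 16 genes of 1883 to 28066 TPM (a level per transcript length, scaled to the same total in every library) in surgical libraries and 2993 to 26586 TPM in control libraries.

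In 3 libraries the muscle transcripts stood apart from the other 11: that of rat C on the surgical side, that of rat H on the control side and that of rat E on the surgical side. The 37 members summed to 44812 TPM in the surgical library of rat C, which was 4.48% of all TPM and 5.56% of all counts (95% Wilson interval 5.55 to 5.57%, for counting error only). They summed to 8960 TPM, or 0.896%, in the control library of rat H. In the surgical library of rat E they summed to 1913 TPM, or 0.191%. The other libraries held 72.1 to 231 TPM, or 0.00721 to 0.0231% of all TPM. One of the 3 libraries was thus from an unoperated side.

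**Figure D1:**
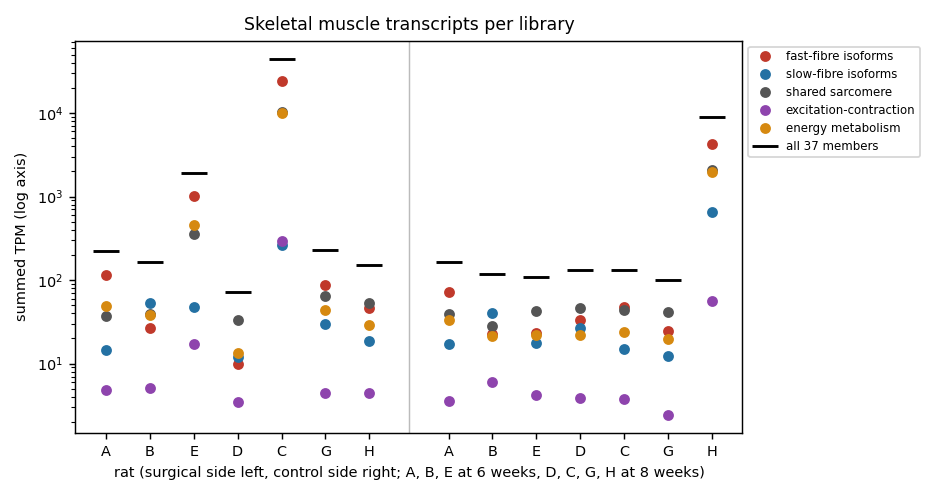
Summed TPM of the members in each library on a log axis, with the surgical side left of the control side and rats in the same order. Bars give all 37 members and coloured points the 5 roles. The surgical library of rat C (44812 TPM), the control library of rat H (8960 TPM) and the surgical library of rat E (1913 TPM) stand above the other libraries (72.1 to 231 TPM).

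The summed level was 72.1 TPM at the lowest, 219.7 TPM at the median and 44812 TPM at the highest surgical library, against 101, 133 and 8960 TPM at the lowest, median and highest control library. All control libraries lay within the range of the surgical ones, and those other than that of rat H held 101 to 165 TPM. At 6 weeks rat A had 219.7 TPM in the surgical and 165 TPM in the control library, rat B 162 and 119 TPM, and rat E 1913 and 109.5 TPM. All 3 rats of that time had the higher sum in TPM on the surgical side, by 1.33-fold, 1.37-fold and 17.5-fold. For rat B this depends on the scale. There 25 members were higher on the surgical side in TPM, but 18 of 37 in log2 CPM as scaled for the tests (median -0.05). At 8 weeks rat C had 44812 TPM in the surgical and 134 TPM in the control library, which is 335-fold, and rat G had 231 and 101 TPM, which is 2.30-fold. The other two went the other way: rat D had 72.1 TPM in the surgical and 133 TPM in the control library, a ratio of 0.543, and rat H had 152 and 8960 TPM, a ratio of 0.0169. In all, 5 of 7 rats had the higher sum in TPM on the surgical side.

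The members moved together in these libraries. The surgical library of rat C was highest for 30 members and the control library of rat H for the other 7, and the same 2 libraries held the 2 highest levels of 36 members. The surgical library of rat E came next for 30 members. The exception to the first pair was Smpx, which encodes a small muscle protein.

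**Figure D2:**
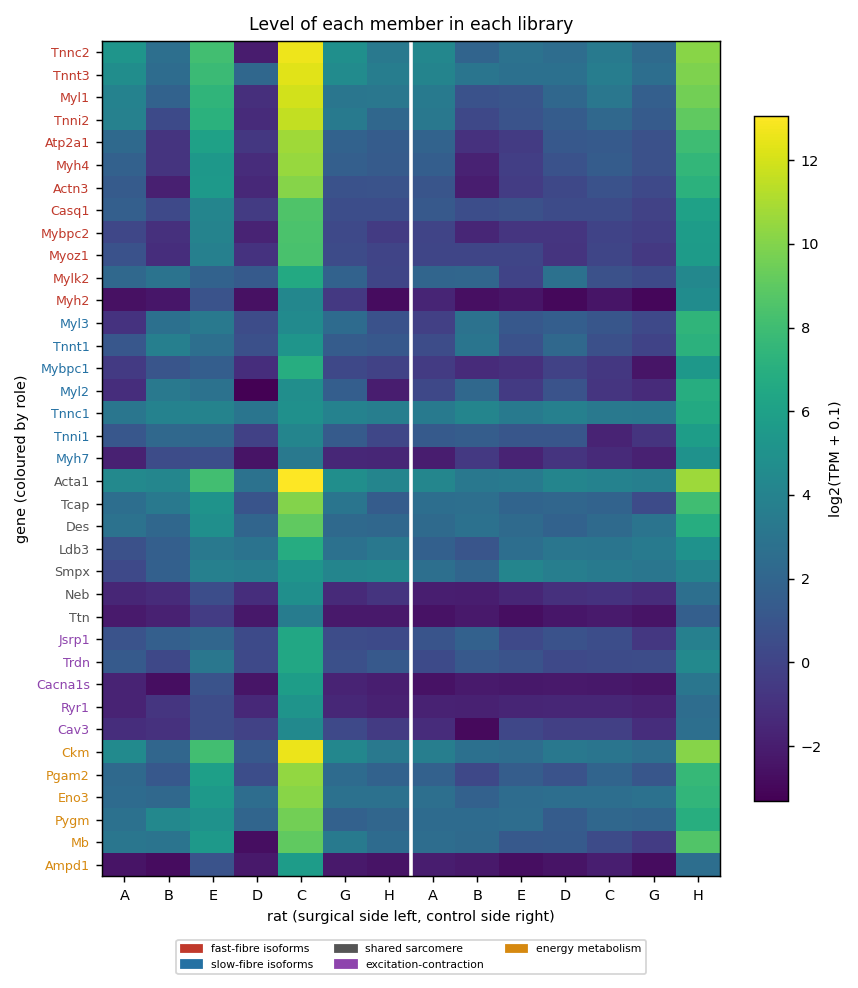
Level of the 37 members as log2(TPM + 0.1) in the 14 libraries, with surgical libraries left of the white line and control libraries right of it, and gene names coloured by role. The columns of rat C on the surgical side and rat H on the control side are bright for nearly every gene. Tnnc1 (8.06 TPM at its lowest) and Acta1 (7.24 TPM) keep a level in every library.

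Acta1 (ENSRNOG00000017786) is the actin of the skeletal muscle thin filament. It was the highest member in the surgical library of rat C and in the control library of rat H. In the surgical library of rat E it was below Tnnc2 (281 TPM) and Ckm (277 TPM), with 271 TPM. It had 7.24 TPM at the lowest, 20.6 TPM at the median and 8560 TPM at the highest surgical library, against 9.31, 15.5 and 1633 TPM on the control side. Ckm (ENSRNOG00000016837), the muscle creatine kinase that regenerates ATP from phosphocreatine, had 2.20, 18.8 and 6094 TPM in surgical libraries, against 5.80, 8.06 and 1073 TPM in control libraries. For both genes the highest value was that of rat C on the surgical side and of rat H on the control side, and the rest of the 2 sides overlapped. The promoters of these members are shown because the 2 genes are the main actin and kinase of the signal, beside that of Smpx, the member that followed it least. The sequences are from RefSeq on GRCr8, run from 250 bases before to 50 bases after the start site, and read 5′ to 3′ on the strand of the gene. Acta1 lies at chr19:68784145-68784444 on the minus strand, Ckm at chr1:88189211-88189510 on the plus strand and Smpx at chrX:41107088-41107387 on the minus strand. Capitals mark matches to the E-box CAGCTG, the MCAT element CATTCC, the CArG box or the MEF2 site, searched on both strands.
Acta1: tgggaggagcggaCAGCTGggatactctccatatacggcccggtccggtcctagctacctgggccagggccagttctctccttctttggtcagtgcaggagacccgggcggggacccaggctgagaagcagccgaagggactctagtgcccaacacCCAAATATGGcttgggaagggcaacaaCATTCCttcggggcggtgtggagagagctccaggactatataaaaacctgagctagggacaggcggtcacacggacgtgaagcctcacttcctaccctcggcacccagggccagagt
Ckm: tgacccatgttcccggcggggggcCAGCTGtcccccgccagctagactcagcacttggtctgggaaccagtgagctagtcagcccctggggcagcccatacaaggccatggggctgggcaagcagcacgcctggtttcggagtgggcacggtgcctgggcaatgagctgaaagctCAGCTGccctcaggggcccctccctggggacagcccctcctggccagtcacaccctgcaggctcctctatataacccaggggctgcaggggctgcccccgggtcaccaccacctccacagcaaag
Smpx: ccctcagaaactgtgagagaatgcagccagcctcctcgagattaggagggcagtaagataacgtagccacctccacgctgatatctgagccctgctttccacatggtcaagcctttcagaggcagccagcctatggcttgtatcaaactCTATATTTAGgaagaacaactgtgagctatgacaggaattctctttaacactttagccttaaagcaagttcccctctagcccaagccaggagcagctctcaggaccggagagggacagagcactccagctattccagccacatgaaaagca

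These motifs are known as binding sites of muscle transcription factors: the E-box for the MyoD family, MCAT for TEAD factors, the CArG box for SRF and the MEF2 site for MEF2. The Acta1 window held 1 CAGCTG, 1 MCAT element and 1 CArG box, the Ckm window 2 CAGCTG, and the Smpx window 1 MEF2 site. RefSeq windows were matched for 32 members with 33 start sites. Of the 33 windows, 14 (42.4%) held CAGCTG, against 15.1% of 33469 rat promoter windows of the same length. MCAT was in 9 (27.3%), against 14.2% of all. The CArG box was in 4 (12.1%) against 1.64%, and the MEF2 site in 7 (21.2%) against 3.29%. A match is a run of letters, and binding was not measured.

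The fast isoforms had the largest sum of the 5 roles in the 3 libraries richest in muscle transcripts (rats C and E surgical, rat H control), called muscle-rich here, and in 7 of all 14 libraries. Tnnc2, fast troponin C, had 0.135 TPM at the lowest, 28.9 TPM at the median and 6533 TPM at the highest surgical library, against 3.803, 7.21 and 1155 TPM in control libraries. Tnnt3, fast troponin T, had 4.28, 23.4 and 5131 TPM in surgical libraries, against 6.08, 8.26 and 968 TPM in control libraries. Both had their highest surgical value in rat C and their highest control value in rat H. Tnni2, fast troponin I, had 0.297, 10.6 and 2971 TPM in surgical libraries, against 1.08, 2.64 and 529 TPM in control libraries. Myl1, a fast myosin light chain, had 0.358, 8.81 and 3926 TPM in surgical libraries, against 1.67, 4.41 and 769 TPM in control libraries. The surgical library of rat D was lowest for all 4, with a single count of Tnnc2.

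Among the myosins, Myh4, the heavy chain of the fastest fibres, had 0.328 TPM at the lowest, 3.05 TPM at the median and 1475 TPM at the highest surgical library, against 0.196, 1.66 and 184 TPM in control libraries. Myh2, the heavy chain of fast oxidative fibres, had 0.0477, 0.0975 and 19.1 TPM in surgical libraries, against 0.0234, 0.0937 and 24.96 TPM in control libraries. Myh2 was thus one of the 7 members that peaked in the control library of rat H. Myh1, a further fast heavy chain, had no row under that symbol, so no heavy chain share given here includes it. Myosin heavy chain genes share long similar stretches, and how reads between them were divided is not given in the sources used here.

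The remaining fast members followed the same 3 libraries. Atp2a1, the calcium pump of fast fibres, reached 1679 TPM in the surgical library of rat C, and Actn3, the fast actinin of the Z-disc, reached 1102 TPM. Casq1, which stores calcium in the sarcoplasmic reticulum, reached 381 TPM, Mybpc2, a thick filament binding protein, 343 TPM, and Myoz1, a Z-disc protein, 324 TPM. Mylk2, a myosin light chain kinase, reached 99.5 TPM there, and it was the exception on the lower end, since the highest library after those of rats C and H was the surgical library of rat B (7.49 TPM).

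In the 3 muscle-rich libraries the slow isoforms were low beside the fast ones, with sums of 265 against 23983 TPM in rat C and 47.2 against 1027 TPM in rat E on the surgical side, and 661 against 4211 TPM in rat H on the control side. Of the 7 slow isoforms 6 peaked in the control library of rat H instead of the surgical library of rat C. Tnnt1, slow troponin T, had 36.7 TPM in the surgical library of rat C and 149 TPM in the control library of rat H. Tnni1, slow troponin I, had 17.8 and 54.7 TPM in these libraries, and Tnnc1, the troponin C of slow fibres, 29.5 and 97.7 TPM. Myh7, the slow myosin heavy chain, had 9.88 and 32.7 TPM. The slow light chains did the same, with 27.5 and 116 TPM for Myl2 and 23.3 and 168 TPM for Myl3. Mybpc1, the slow myosin binding protein C, was the exception with 120 and 42.1 TPM. Tnnc1 differed from the others in its floor, with at least 8.06 TPM in every library, whereas Myl2 had 0 counts in the surgical library of rat D (3 counts would be 0.133 CPM there).

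The fast share of the troponins, that is the TPM of Tnnt3, Tnni2 and Tnnc2 over these plus Tnnt1, Tnni1 and Tnnc1, put the 3 libraries in a different order from their amount. In rat C it was 99.4% on the surgical side (95% Wilson interval of the share of counts 99.3 to 99.4%) and 70.3% on the control side. In rat E it was 96.2% on the surgical side (95.3 to 96.2% of counts) and 52.3% on the control side. In rat H it was 62.4% on the surgical side and 89.8% on the control side (88.4 to 89.1% of counts). The intervals of the 3 libraries rich in muscle transcripts did not overlap, for counting error only, and each is 1 library. In rats A, D and G the share was 86.0%, 31.2% and 75.4% on the surgical side, against 75.4%, 41.7% and 56.3% on the control side. Over all rats the surgical side was higher in 4 of 7. In libraries poor in muscle transcripts the pooled share depends on Tnnc1, which kept at least 8.06 TPM in every library. In the control library of rat C troponin C gave 52.0% fast, against 89.1% for troponin T and 95.6% for troponin I. In that of rat G troponin C gave 35.2%, against 87.1% and 85.0%. The surgical library of rat B differed, with 28.9% for troponin C, against 28.9% and 20.5%.

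Rat B was low in the fast share on both sides, while its amount was within that of the other libraries. The fast share of the troponins was 27.8% in its surgical library (22.8 to 29.7% of counts) and 31.8% in its control library (27.9 to 34.5% of counts), and that of the surgical library of rat D (31.2%, 28.7 to 41.2% of counts) lay between these. The fast share of the myosin heavy chains, Myh4 and Myh2 over these plus Myh7, was 29.2% in its surgical library (23.5 to 35.7% of counts) and 31.0% in its control library (23.6 to 39.8% of counts). All other libraries, those of rat D included, were at 78.6% or above on that measure. Myh7 was 2.96 times Myh4 in the surgical and 2.86 times in the control library of rat B. Tnnt1 was 2.46 times Tnnt3 in its surgical library and 1.01 times in its control library. These shares rest on 212 and 122 counts of the heavy chains in the surgical and control library, and the counting intervals of the 2 sides overlapped.

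**Figure D3:**
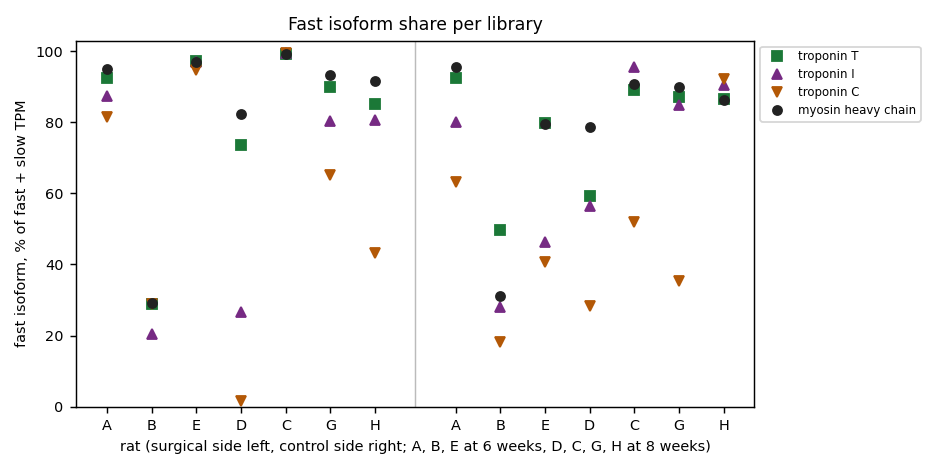
Fast isoform in percent of fast plus slow TPM for troponins T, I and C and for the myosin heavy chains, per library, with the surgical side left and the control side right. Rat B is at or below 49.8% on both sides in all 4 measures, the surgical libraries of rats C and E are above 94%, and troponin C runs below the other 3 measures in most of the remaining libraries.

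The measures parted where the muscle signal was low. Troponin C gave 1.65% fast in the surgical library of rat D (1 count of Tnnc2) and troponin I 26.6% (4 counts of Tnni2). Troponin T gave 73.7% there and the myosin heavy chains 82.5% (53 counts). In the surgical library of rat H troponin C gave 43.2%, against 85.1% for troponin T.

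Sarcomere proteins shared by both fibre types also peaked in the surgical library of rat C. Tcap, which caps titin at the Z-disc, reached 1059 TPM there and 258 TPM in the control library of rat H. Des, the intermediate filament of all muscle types, reached 530 and 117 TPM in these libraries, and Ldb3, a Z-disc protein, 113 and 32.2 TPM. Neb (28.6 and 6.18 TPM) and Ttn (11.9 and 2.98 TPM), the giant proteins that set filament length and elasticity, were low per length. Des lay between 3.43 and 28.8 TPM in the other 12 libraries.

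Smpx followed the rest in rat C but not in rats H and E. It had 1.14 TPM at the lowest, 13.9 TPM at the median and 37.5 TPM at the highest surgical library, against 4.02, 10.4 and 17.2 TPM in control libraries. Rat C had 37.5 TPM in the surgical and 10.4 TPM in the control library, a difference of 2.29 in log2 CPM. Rat H had 18.9 TPM in the surgical and 16.7 TPM in the control library, and rat E 13.9 and 17.2 TPM. The pairs of rats H and E were nearly level, although the summed muscle signal differed 59.1-fold between the sides of rat H and 17.5-fold between those of rat E. The lowest Smpx value, in the surgical library of rat A, was in the library with the lowest neuron marker sum (1883 TPM). Whether neurons carry it was not tested.

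Members of excitation-contraction coupling were expressed at low levels per length. Trdn, which anchors the calcium release complex, and Jsrp1, a protein of the same junction, had 90.8 and 91.3 TPM in the surgical library of rat C, against 21.0 and 13.998 TPM in the control library of rat H. Cacna1s, the voltage sensor of the fibre membrane, had 54.6 and 8.55 TPM, Ryr1, the calcium release channel, 36.2 and 5.64 TPM, and Cav3, the muscle caveolin, 22.1 and 6.25 TPM in those 2 libraries. None of the 5 exceeded 8.81 TPM in the other 12 libraries, where the highest value was that of Trdn in the surgical library of rat E.

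Among the genes of energy metabolism, Pgam2, the muscle phosphoglycerate mutase, had 1351 TPM in the surgical library of rat C and 202 TPM in the control library of rat H. Eno3, the muscle enolase, had 1128 and 176 TPM, Pygm, the muscle glycogen phosphorylase, 773 and 124 TPM, and Ampd1, the muscle AMP deaminase, 52.4 and 6.04 TPM. Mb, the oxygen store myoglobin, which is richest in oxidative fibres, had 0.0526, 8.59 and 530 TPM at the lowest, median and highest surgical library, against 0.665, 2.43 and 385 TPM in control libraries. The levels of Mb in the surgical library of rat C and the control library of rat H were thus closer to each other than those of the 5 enzymes were. Pygm had a further high value of 19.7 TPM in the surgical library of rat B, where 10 spinal cord markers summed to 965 TPM, against 26.3 to 75.6 TPM in the other libraries; their part in this value was not tested.

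Ratios between members gave the make-up of each signal. Of the summed TPM difference between the sides, fast isoforms made 53.6% in rat C and 55.6% in rat E (surgical minus control), and 47.3% in rat H (control minus surgical). The shared sarcomere proteins made 23.0%, 17.6% and 22.9%, and the genes of energy metabolism 22.2%, 24.4% and 21.99%, in the same order. The slow isoforms set the rats apart, with 0.560% in rat C, 1.65% in rat E and 7.29% in rat H. Of 36 members with a share above 0 in rats C and H, 24 had shares within 1.5-fold of each other and 28 within 2-fold. The members far from that were slow isoforms, Myh2 and Mb: the share in rat C was 0.0252 times that in rat H for Myl3, 0.0472 times for Tnnt1, 0.0583 times for Myh7, 0.151 times for Myh2 and 0.274 times for Mb. Across members, which are not replicates, the shares had a Spearman rho of 0.903 between rats C and E, 0.929 between rats E and H and 0.772 between rats C and H.

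**Figure D4:**
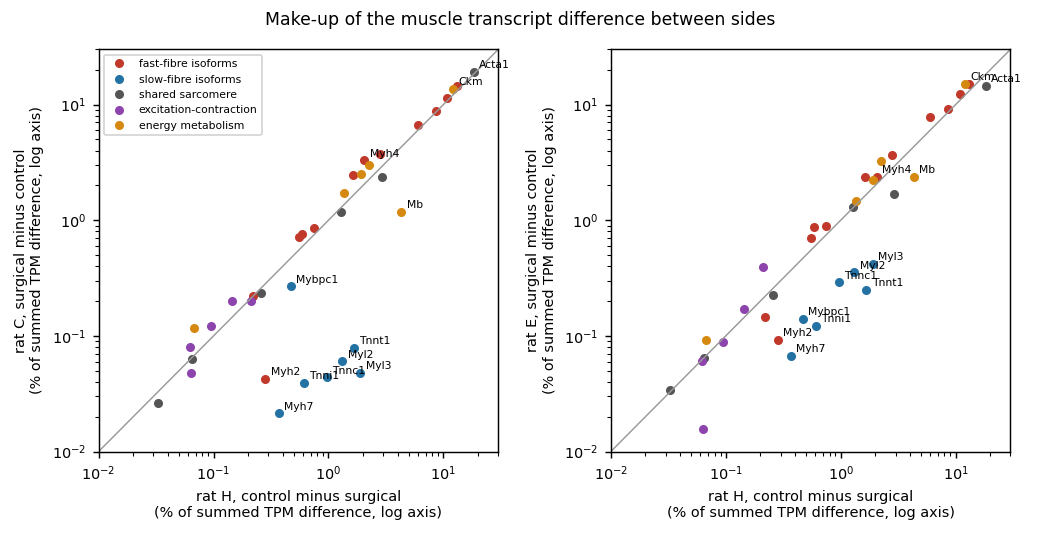
Share of each member in the summed TPM difference between the sides of rat C (left panel) and rat E (right panel), both surgical minus control, against its share in rat H, control minus surgical. Both axes are in percent on a log scale, the line marks equal shares, and Smpx is not drawn because its difference was below 0 in rats E and H. Fast isoforms other than Myh2 lie along the line and slow isoforms below it. Slow isoforms sum to 0.560% in rat C and 1.65% in rat E, against 7.29% in rat H, and of these only Mybpc1 lies closer to the line in rat C than in rat E.

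Among the fast troponins the ratios in the 3 libraries were close. Tnnc2 over Tnnt3 was 1.27 in rat C and 1.21 in rat E on the surgical side, and 1.19 in rat H on the control side. Tnni2 over Tnnt3 was 0.579, 0.618 and 0.547 in the same libraries. Between an enzyme and an actin, Ckm over Acta1 was 0.712, 1.02 and 0.657. Of Myh4 plus Myh2, the fast heavy chains with a row, Myh4 made 98.7%, 96.1% and 88.0%. Mb over Ckm was 0.0869, 0.163 and 0.359, and Tnnt1 over Tnnt3 was 0.00715, 0.0267 and 0.154, so among these 3 libraries the last 2 ratios were highest in the control library of rat H.

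The comparison of the sides asked whether muscle transcripts differ in ganglia whose nerve had been given a muscle. In single rats the median difference of the 37 members, surgical minus control in log2 CPM, was 7.91 in rat C, 3.04 in rat E, 1.23 in rat G, 0.34 in rat A, -0.05 in rat B, -0.81 in rat D and -5.84 in rat H. All 37 members were higher on the surgical side in rat C, between 2.02 for Tnnc1 and 10.01 for Ckm, whereas 36 were lower in rat H, down to -8.69 for Myh2. No member went the same way in all 7 rats, 3 were higher on the surgical side in 6 rats, 14 in 5, 15 in 4 and 5 in 3.

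With the rat as a block in edgeR's quasi-likelihood test, no member passed an adjusted p of 0.05 over both times, at 6 weeks, at 8 weeks or for the difference between the times. Among all 17035 genes tested 0% passed in each comparison, and at an unadjusted p under 0.05 the share was 2.42%, 3.21%, 1.06% and 1.48% in that order. All 37 members passed the filter on low counts, and 0, 0, 0 and 1 of these had an unadjusted p under 0.05. The 1 was Smpx for the difference between the times, named after its values were seen, at 2.04 (SE 0.75, adjusted p = 1). DESeq2 called 6, 44, 4 and 5 genes of all, and limma called 0 in each, with 0 members among them; at an unadjusted p under 0.05 DESeq2 had 0, 1, 0 and 1 members and limma 0, 0, 0 and 1. Comparisons by time share the fit, and each used 14 libraries.

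Over both times the estimate for Acta1 was 0.86 (log2, SE 1.63) and that for Ckm 0.76 (SE 1.94). Mb stood at 1.32 (SE 1.80), Ttn at 1.09 (SE 1.27), Ryr1 at 0.82 (SE 1.20) and Des at 0.31 (SE 1.21). Among fast isoforms Tnnc2 stood at 1.29 (SE 2.03), Tnni2 at 1.14 (SE 2.04), Tnnt3 at 1.04 (SE 1.71) and Myh4 at 0.81 (SE 1.82). The slow counterparts were at -0.16 (SE 0.54) for Tnnc1, 0.39 (SE 1.21) for Tnni1, 0.48 (SE 1.17) for Tnnt1 and 0.43 (SE 1.38) for Myh7. Every adjusted p was 1 in edgeR, and each SE was larger than the size of its estimate.

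In that comparison 36 of 37 members had estimates above 0, with a median of 0.81, against a median of 0.00 over all genes tested. The 12 fast isoforms were all above 0 (median 0.86), as were 6 of 7 slow isoforms (0.43), 7 of 7 shared sarcomere genes (0.67), 5 of 5 coupling genes (0.82) and 6 of 6 metabolic genes (1.02). These counts rest on single rats. Without rat C 16 members of 36 tested were above 0 and 20 below, with a median of -0.03. Without rats C, E and H together 22 were above and 14 below, with a median of 0.17. Without rat E alone the median was 0.17 (24 above, 13 below), and without rat H it was 1.63 (35 above, 1 below).

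**Figure D5:**
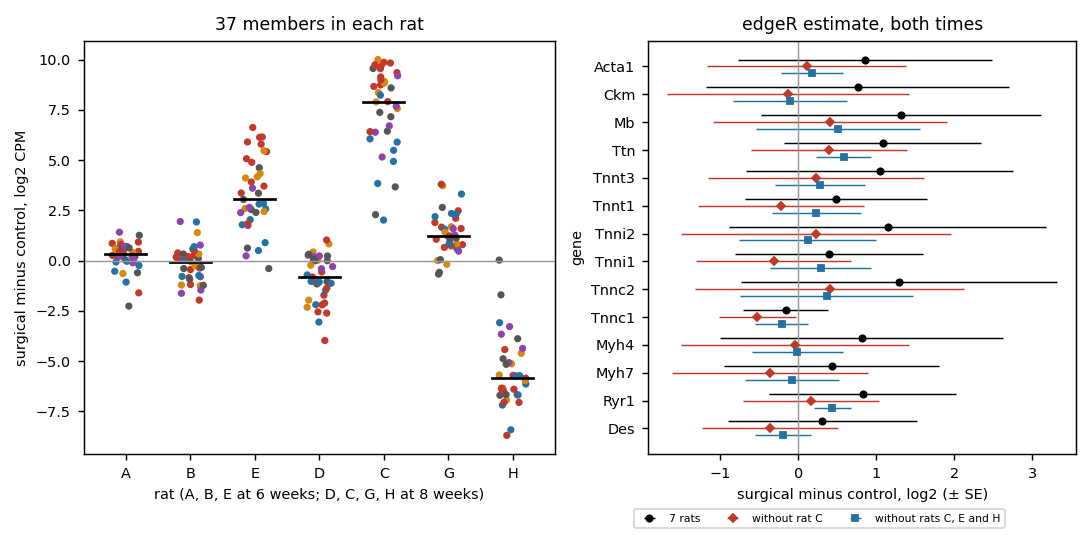
Left, surgical minus control in log2 CPM for the 37 members in each rat, coloured by role as in the plot of summed TPM, with a bar at the median. Right, edgeR estimates with SE for 14 members over both times with 7 rats, without rat C, and without rats C, E and H. The medians run between 7.91 in rat C and -5.84 in rat H, and the error bars of the fit with 7 rats cross 0 for all 14 genes.

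At 6 weeks 34 of 37 members had estimates above 0, with a median of 1.08 against -0.01 over all genes, and without rat E 21 were above and 16 below, with a median of 0.06. Acta1 stood at 1.4997 (SE 2.33), Ckm at 1.43 (SE 2.80) and Des at 0.61 (SE 1.76), each with an adjusted p of 0.999 in edgeR. At 8 weeks 25 members were above 0 and 12 below, with a median of 0.21 against 0.01 over all genes. Acta1 stood at 0.05 (SE 2.63), Ckm at -0.08 (SE 3.06) and Des at -0.05 (SE 1.87) there, with an adjusted p of 1. The value at 8 weeks moved with single rats: without rat C 1 of 36 members was above 0 (median -1.47), and without rat H 36 of 36 were (median 2.06). Without rat G 14 were above 0 (median -0.63), and without rat D 35 were (median 1.25). For the difference of the times, 8 minus 6 weeks, 8 members were above 0 and 29 below, with a median of -0.69 against 0.05 over all genes, and it turned to 0.31 without rat D, 0.23 without rat E, 0.94 without rat H and 0.14 without rats C, E and H. Without the rat as a block the medians were 2.27 over both times (31 above, 6 below), 1.62 at 6 weeks (35 above, 2 below), 2.69 at 8 weeks (30 above, 7 below) and 0.13 for the difference (22 above, 15 below). With the rat as a block, the difference of the times was -1.45 (SE 3.51) for Acta1 and -1.51 (SE 4.21) for Ckm. It was -0.66 (SE 2.59) for Des in that fit, and each of these genes had an adjusted p of 1.

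Other muscle genes had the same pattern over libraries. Of 56 further skeletal muscle genes found, the surgical library of rat C was highest for 43, the control library of rat H for 7 and another for 6. Of the 55 tested over both times, 44 were above 0 and 11 below (median 0.31), and none passed in edgeR. The 5 most abundant were Tpm1, Tpm2, Tpm3, Pfkm and Fhl1, which other cells express too. Tpm1, a tropomyosin, had 5018 TPM in the surgical and 287 TPM in the control library of rat C, and 259 TPM in the surgical and 1018 TPM in the control library of rat H. Tpm3, the tropomyosin of slow fibres among other cells, was instead highest in the control library of rat H (193 TPM), with 155 TPM in the surgical library of rat C. Tpm2, another tropomyosin, had 956 TPM in the surgical and 108 TPM in the control library of rat C, and 42.6 TPM in the surgical and 254 TPM in the control library of rat H. Pfkm, the muscle phosphofructokinase, and Fhl1, a LIM protein, had levels in every library and followed the signal less. Pfkm had 263 TPM in the surgical and 169 TPM in the control library of rat C, and 184 and 146 TPM in rat H. Fhl1 had 74.5 TPM in the surgical and 78.3 TPM in the control library of rat C, and 57.0 and 108 TPM in rat H. Over all libraries Pfkm was highest in the surgical library of rat C and Fhl1 in the control library of rat H.

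Among named genes that averaged 1 TPM or more, those most like the summed members over the 14 libraries were Ankrd23 (Pearson r of log2(TPM + 1) 0.996), Hjv (0.993), Dhrs7c (0.985), Myl11 (0.984), LOC100912306 (0.982) and Cox6a2 (0.981). They were followed by Xirp2, Cacng1, Adss1, Nrap, Art1, Klhl41, Myom1, LOC102550325 and Fitm1, the last with 0.974. The libraries share rats and 3 of them stand apart, so these coefficients are a description. Of the 15 genes, 6 were on the list of further muscle genes. Myl11, the fast regulatory light chain of myosin, was the most abundant, with 5845 TPM in the surgical and 10.3 TPM in the control library of rat C, and 8.65 TPM in the surgical and 1000 TPM in the control library of rat H.

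Genes of muscle development and denervation were measured beside the members, since fibres that are forming or have lost their nerve raise several of them. The embryonic myosin Myh3 did not exceed 0.289 TPM in any library and the satellite cell factor Pax7 did not exceed 0.129 TPM. Myog had 0.335 TPM at most and the acetylcholine receptor subunit Chrna1 1.67 TPM at most, both in the surgical library of rat C. Myod1 had 1.37 TPM there and at most 0.226 TPM elsewhere, and Myf6, a regulator of mature fibres in the same family, 14.01 TPM there, 1.94 TPM in rat H on the control side and at most 0.402 TPM elsewhere. The neonatal myosin Myh8 was highest in the control library of rat G (1.605 TPM). Chrng, the fetal receptor subunit, did not follow the muscle signal, with 32.7 to 62.3 TPM over all 14 libraries. Chrne, the adult subunit, had 6.76 TPM in the surgical and 7.64 TPM in the control library of rat C, and Mstn, the growth inhibitor myostatin, 1.05 and 2.29 TPM. Myl4, a light chain of embryonic and atrial muscle, was higher there, with 24.6 TPM in the surgical and 2.795 TPM in the control library of rat C. Of the 11 genes of this list tested over both times, 6 were above 0 and 5 below, with a median of 0.02, and none passed in edgeR.

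Most markers of heart muscle were low, with Tnnt2 and Nppa as the exceptions. Of 11 cardiac genes, Myl7, Nkx2-5 and Tbx20 were at 0 in the surgical library of rat C, and Myh6 did not exceed 0.574 TPM in any library. Tnnt2, the cardiac troponin T, had 1.78 TPM in the surgical and 5.72 TPM in the control library of rat C, and 8.31 TPM in the surgical and 54.1 TPM in the control library of rat H. Among the other abundant genes of the list, Nppa, the atrial natriuretic peptide, had 7.87 TPM in the surgical and 10.9 TPM in the control library of rat C. Over all libraries Nppa had 1.16 to 19.4 TPM, the highest in the surgical library of rat B. Ryr2, Nppb and Tnni3 did not exceed 3.32, 4.55 and 0.809 TPM in any library. The cardiac list summed to 13.8 to 26.4 TPM in surgical libraries and 15.7 to 66.7 TPM in control libraries, the last in rat H. The 13 smooth muscle and mural genes summed to 148 to 380 TPM in surgical libraries and 175 to 699 TPM in control libraries, and the lowest of all was the surgical library of rat C. In rat C 4 of the 13 were higher on the surgical side, Pdgfrb with 11.5 against 6.998 TPM, Notch3 with 4.76 against 2.68 TPM, Cspg4 and Kcnj8, and 9 were lower. Of the 5 most abundant, Tagln had 53.6 TPM in the surgical and 243 TPM in the control library, Acta2, the smooth muscle actin, 19.0 and 102 TPM, and Rgs5, a pericyte gene, 21.3 and 74.1 TPM. Cnn1 had 2.10 and 26.2 TPM there, and Smtn 15.9 and 16.6 TPM.

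Markers of other cells also differed between the sides of rats C and H, whereas the sums of rat E given here were closer between its sides. The 16 neuron markers summed to 10168 TPM in the surgical and 23358 TPM in the control library of rat C, with 0 of 16 higher on the surgical side. In rat H they summed to 28066 TPM in the surgical and 14016 TPM in the control library, with 14 of 16 higher on the surgical side. So in these 2 rats the library with the muscle transcripts had the lower neuron sum. In rat E the neuron sum was 17351 TPM in the surgical and 18611 TPM in the control library, with 6 of 16 higher on the surgical side. The 8 markers of myelinating Schwann cells summed to 1463 TPM in the surgical and 7837.2 TPM in the control library of rat C. Their sums were 7207 and 5860 TPM in rat H, and 9006 and 8541 TPM in rat E.

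The 8 fibroblast markers summed to 7126 TPM in the surgical and 967 TPM in the control library of rat C, with 6 of 8 higher on the surgical side, and ranged over 604 to 7126 TPM in surgical and 432 to 1963 TPM in control libraries. Most of that sum was collagen, with 3469 TPM of Col1a1 and 3041 TPM of Col1a2 in the surgical library of rat C, against 85.7 and 104 TPM in its control library. The fibroblast gene Dcn went the other way there, with 132 TPM in the surgical and 462 TPM in the control library. The fibroblast sums of the surgical and control library were 690 and 1156 TPM in rat H, and 1215 and 1276 TPM in rat E. On the surgical side 0 of 8 fibroblast markers were higher in rat H and 2 of 8 in rat E. Red blood cell genes (5 found of 8) summed to 163553 TPM in the surgical and 34945 TPM in the control library of rat C. Their sums were 32681 and 61166 TPM in rat H, and 39919 and 30601.5 TPM in rat E. They ranged over 32681 to 163553 TPM in surgical and 26650 to 153725 TPM in control libraries, and rat A had 159885 TPM in the surgical and 153725 TPM in the control library. Macrophage genes were higher on the surgical side for 9 of 9 in rat C and 0 of 9 in rat H, with sums of 188 to 494 TPM over surgical and 191 to 543 TPM over control libraries. None of these neuron, Schwann cell, fibroblast, red cell or macrophage markers was at 0 in that library of rat C. In bulk RNA fewer cells of a type and less RNA per cell cannot be told apart, and the part of these markers in the muscle values was not tested.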

How the data were processed

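Ganglia of both sides of 7 rats gave 14 libraries. Group, rat and time were taken from the sample titles. Letters C and D are exchanged between titles and library names on both sides, with pairs unaffected, and titles were followed. The surgical title of rat C says replicate 1, taken here as replicate 2. The labels give polyA RNA as the molecule and name ribosomal depletion in the extraction protocol. The authors deposited whole-number estimated counts, and the authors' deposited levels were TPM. The submitters' processing notes name FastQC, Trim Galore, Salmon and DESeq2; versions and the genome build are not given in the sources used here.

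Members were matched by the deposited symbol. They, the lists and the alternatives were chosen with earlier results of these data known. Named genes followed a rule: all members with levels, 14 by role with estimates over both times, Acta1, Ckm and Des at each time, the 15 most like genes, and values for set genes of the other lists. Levels were described in TPM, and libraries were compared without a test.

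Tests ran on the deposited estimated counts in edgeR 4.0.16 under R 4.3.3 (filterByExpr with a minimum count of 10, TMM, robust quasi-likelihood, two-sided), with the rat as a block over 14 libraries. Residual degrees of freedom were 6 over both times and 5 by time. Adjusted p-values are Benjamini-Hochberg over 17035 genes, with a threshold of 0.05. The SE was the log2 difference over the root of the quasi-likelihood F. Values per rat are log2 CPM with a prior count of 2. Alternatives were DESeq2 1.42.0, its size factors, scaling without muscle genes, no filter, at least 1 CPM in 3 libraries, no robust dispersion, no block, limma 3.58.1 with 1 or 0.1 added to TPM on a log2 scale (mean TPM at least 0.5), only the libraries of a time, each rat left out in turn, and rats C, E and H left out. The procedure was also run on simulated counts without a rat effect or libraries made to stand apart, and the outcome is not given here.

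The 2 sides of a rat come from the same animal, per the labels, which is the pairing used. The correlation of their deviations from the group means was 0.31 in rat A, -0.18 in rat B, 0.83 in rat E, -0.08 in rat D, -0.51 in rat C, 0.15 in rat G and -0.42 in rat H. Intervals are 95% Wilson intervals of counts, and they and the floor of 3 counts cover counting error only.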

Additional observations from a re-analysis of the deposited data

Results flagged for a closer look

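At 8 weeks the surgical library of rat C lay far above the other 3 surgical libraries, and the control library of rat H far above the other 3 control libraries, by the gap between the highest and the next library over the range of the group (Dixon's 95% critical value 0.829 for 4 libraries). The summed level of the members, the fast share of the troponins and 14 members fixed by role were looked at in both groups, 32 in all, and 29 values passed, none of these a fast share. Chance flags about 1 group in 20 if the values are normally distributed, which was not checked for these TPM. The flagged values are not independent, since they come from 2 libraries that already stood apart above.

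The surgical library of rat C passed for the sum of the members, with 44812 TPM. Among single members it passed with Acta1 8560, Ckm 6094, Mb 530, Ttn 11.9, Tnnt3 5131, Tnnt1 36.7 and Tnni2 2971 TPM. It also passed with Tnni1 17.8, Tnnc2 6533, Myh4 1475, Myh7 9.88, Ryr1 36.2 and Des 530 TPM. Tnnc1 did not pass there.

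The control library of rat H passed for the sum, with 8960 TPM. Single members passed there with Acta1 1633, Ckm 1073, Mb 385, Ttn 2.98, Tnnt3 968, Tnnt1 149 and Tnni2 529 TPM. The others were Tnni1 54.7, Tnnc2 1155, Tnnc1 97.7, Myh4 184, Myh7 32.7, Ryr1 5.64 and Des 117 TPM. No further library of these groups was far from the rest by this measure. The groups at 6 weeks hold 3 libraries each and were not examined this way, so the surgical library of rat E (1913 TPM in sum) is not among these values.

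No member was opposite in sign in all rats of 6 weeks and all rats of 8 weeks.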

How the results depend on the processing

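No member was called in edgeR, DESeq2 or limma under any alternative, and the lowest adjusted p of the 23 single-gene results was 0.823 with all rats or a rat left out and 0.947 under the other alternatives. Over all genes edgeR called 0 in each comparison, whereas DESeq2 called 6 over both times, 44 at 6 weeks, 4 at 8 weeks and 5 for the difference of the times. Without the replicate block, that is without the pairing, edgeR called 2 at 6 weeks. The median fast share of the control libraries was 56.3% by troponins and 86.4% by myosin heavy chains. Directions of single members were less firm: 20 of 236 alternative values turned, outside those that leave out a single rat. The cause was not tested.

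Without the replicate block the pairing was dropped, and values that turned were -1.11 for Myh7, -0.79 for Tnni1 and -1.18 for Tnnt1 over both times, 2.81 for Ckm and 2.36 for Des at 8 weeks, and 0.083 for Acta1 and 1.44 for Des in the difference of the times; the median over the members was 2.27 over both times, 1.62 at 6 weeks, 2.69 at 8 weeks and 0.13 for the difference. It changed no call of a member. Without rats C, E and H the values that turned were -0.11 for Ckm, -0.20 for Des, -0.016 for Myh4 and -0.084 for Myh7 over both times, -0.13 for Ckm and -0.28 for Des at 6 weeks, and 0.033 for Ckm and 0.17 for Des in the difference. By limma they were 0.62 and 0.57 for Ckm and 0.39 and 0.37 for Des at 8 weeks, with 1 and 0.1 added to TPM, and -0.059 for Myh7 over both times with 1 added. limma moved the median of all genes to 0.16 (1 added) and 0.19 (0.1 added) at 6 weeks, -0.09 and -0.11 at 8 weeks and -0.24 and -0.29 for the difference.

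Leaving out each rat in turn gave over both times -0.13 to 1.71 for Ckm, -0.23 to 1.20 for Tnnt1, -0.32 to 1.09 for Tnni1, -0.53 to 0.26 for Tnnc1, -0.041 to 1.72 for Myh4, -0.37 to 1.18 for Myh7 and -0.36 to 0.97 for Des. It gave -0.15 to 3.21 for Ckm and -0.31 to 1.53 for Des at 6 weeks. At 8 weeks it gave -1.71 to 1.85 for Acta1, -2.20 to 2.06 for Ckm and -1.49 to 1.48 for Des. For the difference it gave -3.22 to 0.35 for Acta1, -3.65 to 0.62 for Ckm and -2.11 to 0.86 for Des. Scaling by DESeq2's size factors or without muscle genes, both other filters and the fit without robust dispersion turned no value. In libraries with few counts of a member, such as Tnnc2 and Myl2 in the surgical library of rat D, depth limits the ratios.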
